A study of Mus musculus with 8 samples.

Results

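Interferon-stimulated genes are the genes that cells switch on when interferons bind their receptors. A set of 38 such mouse genes was followed in sorted splenic B cells, and 34 of them could be measured among 19937 genes on the arrays. The members were given as a list of symbols. A member counted as measured where the platform annotation tied a probe set to that symbol alone, and all 34 had exactly 1 such probe set. Isg15, Gbp2 and Igtp were left out because their probe sets are shared with Gm9706, Gbp2b and Irgm2, and Ifi44 has no probe set that the annotation names.

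The cells came from spleens of adult mice on a CBAxC57BL/6J background and were sorted by FACS for CD22 and B220. The 4 Control samples were wild-type littermates. The 4 Sca1-HGAL samples carried HGAL (GCET2), a human germinal centre adaptor protein, under the Sca1 (Ly-6E.1) promoter, and the labels call this line knock-in in one place and transgenic in another. The Sca1 promoter is not limited to B cells, and the gene for Sca-1, Ly6a, responds to interferon itself. It is a different gene from the member Ly6e and is not analysed here. Total RNA of each sample was hybridised to 1 Affymetrix Mouse Gene 1.0 ST array. Nothing in the labels ties each array to its own mouse, so p-values here reflect only how much these samples vary, which may be technical.

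In textbook terms, type I interferon binds the IFNAR receptor, and receptor-bound kinases then switch on the transcription factor complex ISGF3, which binds a promoter sequence called the interferon-stimulated response element (ISRE). Type II interferon acts through promoter sequences called gamma-activated sites (GAS). B cells carry both receptors, and resting cells keep a low level of this programme that depends on small amounts of interferon.

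Promoter sequences, in which an ISRE would lie, were available from RefSeq (GRCm38.p6) for 23 of the 34 members, 29 promoters of 300 bases in all. The ISRE core, taken as GAAA, any 2 bases and GAAA again (TTTC, any 2 bases and TTTC when read on the opposite strand), with overlapping matches allowed, was found in the promoters of 12 of these 23 genes. It was found in 3.44% of all 32851 promoters of that length, and in 44.8% of the members' promoters. The GAS letters TTCNNNGAA, the same on both strands, were found in 5 of the 23 genes, 17.2% of the members' promoters and 8.3% of all promoters. Of 19 ISRE matches, 14 began within the 150 bases before the start site. The 250 bases before the start site are shown for 5 genes. Ifit1, Ifit3, Irgm1 and Oas1a each hold 2 matches, and for each of them Control replicates 2 and 4 both lay above the other 6 arrays. Rsad2 holds 1 match and did not have this order. The other members did not all divide this way. Gbp3 holds 2 matches and did not have this order, while Stat2, Oas3, Ddx58 and Ifih1 hold 1 each and did. Capitals mark the ISRE matches.

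Ifit1, chr19:34640639-34640888, plus strand: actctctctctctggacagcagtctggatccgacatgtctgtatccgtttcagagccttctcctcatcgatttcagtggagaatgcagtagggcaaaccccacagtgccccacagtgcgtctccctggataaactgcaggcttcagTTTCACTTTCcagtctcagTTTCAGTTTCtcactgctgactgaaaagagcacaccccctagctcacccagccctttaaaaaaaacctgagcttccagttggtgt

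Ifit3, chr19:34583279-34583528, plus strand: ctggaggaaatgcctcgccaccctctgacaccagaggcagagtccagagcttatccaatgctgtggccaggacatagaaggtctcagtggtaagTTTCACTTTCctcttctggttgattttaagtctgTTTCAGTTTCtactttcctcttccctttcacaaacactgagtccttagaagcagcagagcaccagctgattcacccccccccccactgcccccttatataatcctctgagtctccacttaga

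Irgm1, chr11:48871421-48871670, minus strand: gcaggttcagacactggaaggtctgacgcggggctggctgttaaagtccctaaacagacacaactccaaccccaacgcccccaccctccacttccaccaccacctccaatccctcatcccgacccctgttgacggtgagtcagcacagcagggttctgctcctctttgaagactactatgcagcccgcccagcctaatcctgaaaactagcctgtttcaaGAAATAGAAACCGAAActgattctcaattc

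Oas1a, chr5:120907526-120907775, minus strand: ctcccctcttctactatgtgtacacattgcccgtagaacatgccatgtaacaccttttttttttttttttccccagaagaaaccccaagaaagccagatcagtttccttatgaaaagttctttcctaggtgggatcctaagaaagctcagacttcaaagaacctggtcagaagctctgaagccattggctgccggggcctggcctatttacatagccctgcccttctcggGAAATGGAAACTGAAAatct

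Rsad2, chr12:26456453-26456702, minus strand: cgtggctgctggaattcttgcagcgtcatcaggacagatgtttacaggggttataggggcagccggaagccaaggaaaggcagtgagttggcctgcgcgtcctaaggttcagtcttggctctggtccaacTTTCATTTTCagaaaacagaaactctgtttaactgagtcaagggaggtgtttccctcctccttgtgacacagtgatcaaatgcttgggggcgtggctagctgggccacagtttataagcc

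The matches in Ifit1 began at -104 and -85 and those in Ifit3 at -156 and -122, counted from the start site. In Irgm1 they began at -30 and -24 and in Oas1a at -20 and -14, so that both matches share 4 bases, and the match in Rsad2 began at -120. Over the 12 genes with a match the median log2 difference between Sca1-HGAL and Control was -0.22, and over the 11 without it was -0.35. A match in these letters does not show that a factor binds there.

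No detection calls were used. Mean Control levels ran from log2 6.86 for Mx2 to 12.81 for Ly6e. Levels are log2 intensities of a probe set and cannot be ranked between genes. Median intensities of the arrays lay between 145.2 and 151.4, and B-cell genes were high on all arrays, with a mean of 6 B-cell markers between 13.00 and 13.09. Cd79a, a B-cell receptor component, was at 13.40 in Control and 13.29 in Sca1-HGAL arrays, and Cd22 at 12.66 and 12.70.

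Control replicates 2 and 4 stood apart from all other arrays in sex-linked genes, which bears on every result below. Xist, the RNA that coats the inactive X chromosome of female cells, was at 12.17 and 12.18 on these arrays and at most 5.65 on the other 6. The Y-linked genes Eif2s3y, Kdm5d and Uty were low on the same arrays, Eif2s3y at 4.22 and 3.96 against at least 10.21 elsewhere. The labels give no sex. No Sca1-HGAL array had high Xist, so the differences between genotypes are given with all 8 arrays and again without these 2 arrays, which leaves 2 Control and 4 Sca1-HGAL arrays and is called the smaller fit. That alternative was chosen with their values known. None of the 34 members lies on the X or Y chromosome; they are spread over 14 autosomes.

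Interferon-stimulated genes were high on the Control arrays with high Xist. For 30 of the 34 members, both of these arrays lay above all 6 others, a pattern seen in 3.43% of the 21640 probe sets tested. Compared with the other Control arrays alone, both were higher for 31 members and both lower for none, against 20.5% and 14.0% of probe sets. The median excess over Control replicates 1 and 3 was 0.53 on the log2 scale over the members and 0.02 over all probe sets. The mean level of the 34 members was 9.15 and 9.41 on Control replicates 2 and 4, 8.63 and 8.81 on Control replicates 1 and 3, and 8.80, 8.59, 8.49 and 8.80 on Sca1-HGAL replicates 1 to 4. Control replicate 4 was the highest of all 8 arrays for 27 members, a count that was not made over all probe sets. Both arrays with high Xist lay above the other 6 for 10 of 12 genes with an ISRE match and 10 of 11 without. These arrays were picked out by Xist after their values were seen, so these counts are a description.

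**Figure D1:**
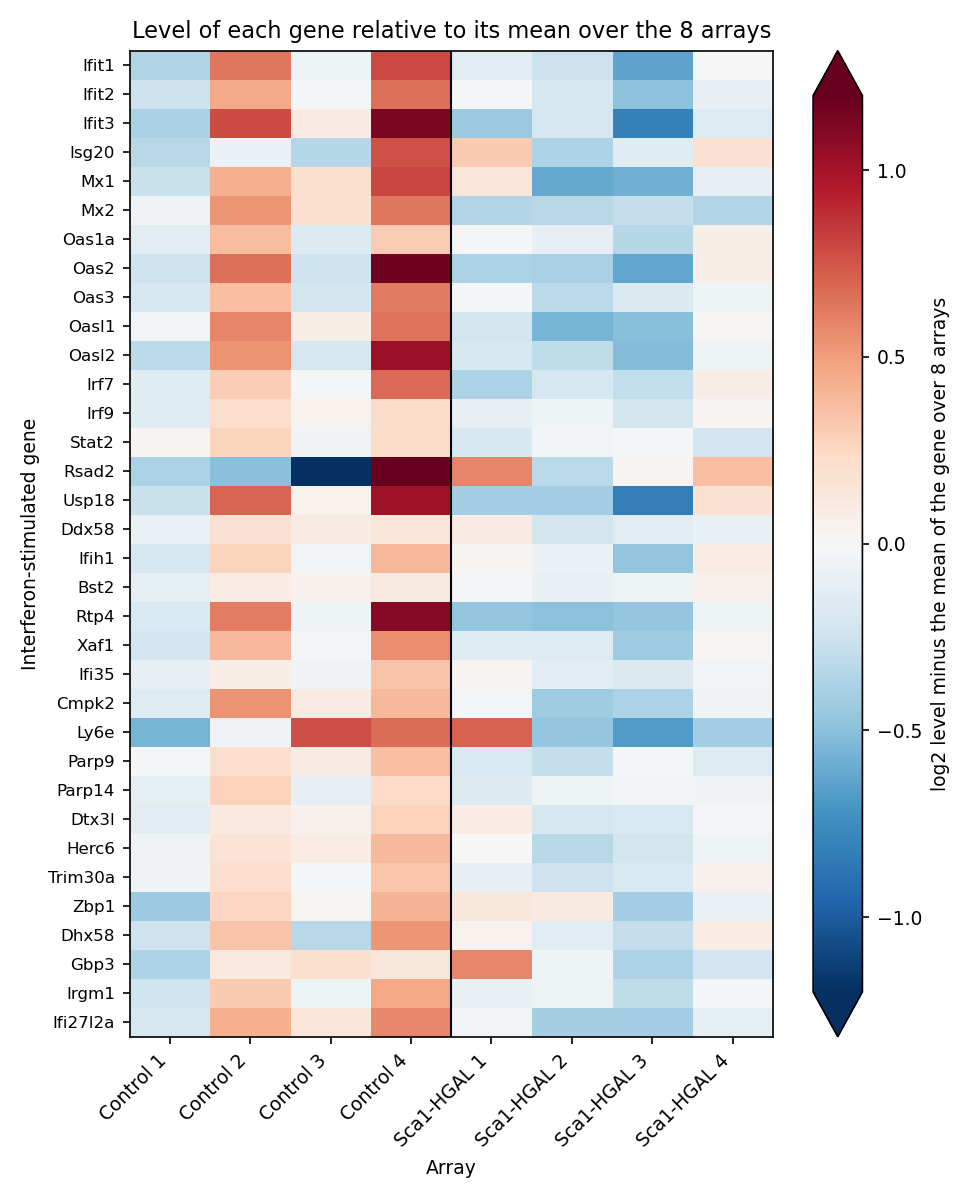
Heat map of the 34 interferon-stimulated genes (rows) on the 8 arrays (columns), with the log2 level minus the mean of that gene over the 8 arrays as colour and a line between Control and Sca1-HGAL. Control 2 and Control 4 are red for most genes, and both lay above all 6 other arrays for 30 of 34; Rsad2 and Ly6e follow other patterns.

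Compared between the genotypes, the members had lower means in Sca1-HGAL arrays, but none passed the test. Differences are log2 Sca1-HGAL minus Control and were tested with limma over 21640 probe sets, with Benjamini-Hochberg adjustment. The median difference over the 34 members was -0.29, and 33 were negative (32 after a second quantile normalisation, where Isg20 turned positive), against a median of 0.01 and 43.9% negative over all probe sets; 1 member was positive, against 56.1%. At an adjusted p under 0.05, 0 of 34 members and 0.00462% of all probe sets passed, and the smallest adjusted p of a member was 0.142. At an unadjusted p under 0.05, 13 members were lower and 0 higher, against 4.06% lower and 5.53% higher of all probe sets. Without the arrays with high Xist the median was -0.06, 23 members were negative and 11 positive against 42.7% and 57.3% of probe sets, and 0 members passed at an adjusted p under 0.05, against 0.00924%. At an unadjusted p under 0.05, 1 member was lower and 1 higher in that fit, against 3.15% and 4.93%. Leaving out single Control arrays moved the count of 13 as well, to 22 without replicate 1 and to 6 without replicate 2 or replicate 4. It was 7 without Sca1-HGAL replicate 2 and 8 without Sca1-HGAL replicate 3. Over all 21640 probe sets the lower count was 879 with all arrays and 831 without Control replicate 1. It was 704 without Control replicate 2, 858 without Control replicate 4, 637 without Sca1-HGAL replicate 2 and 1053 without Sca1-HGAL replicate 3.

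**Figure D2:**
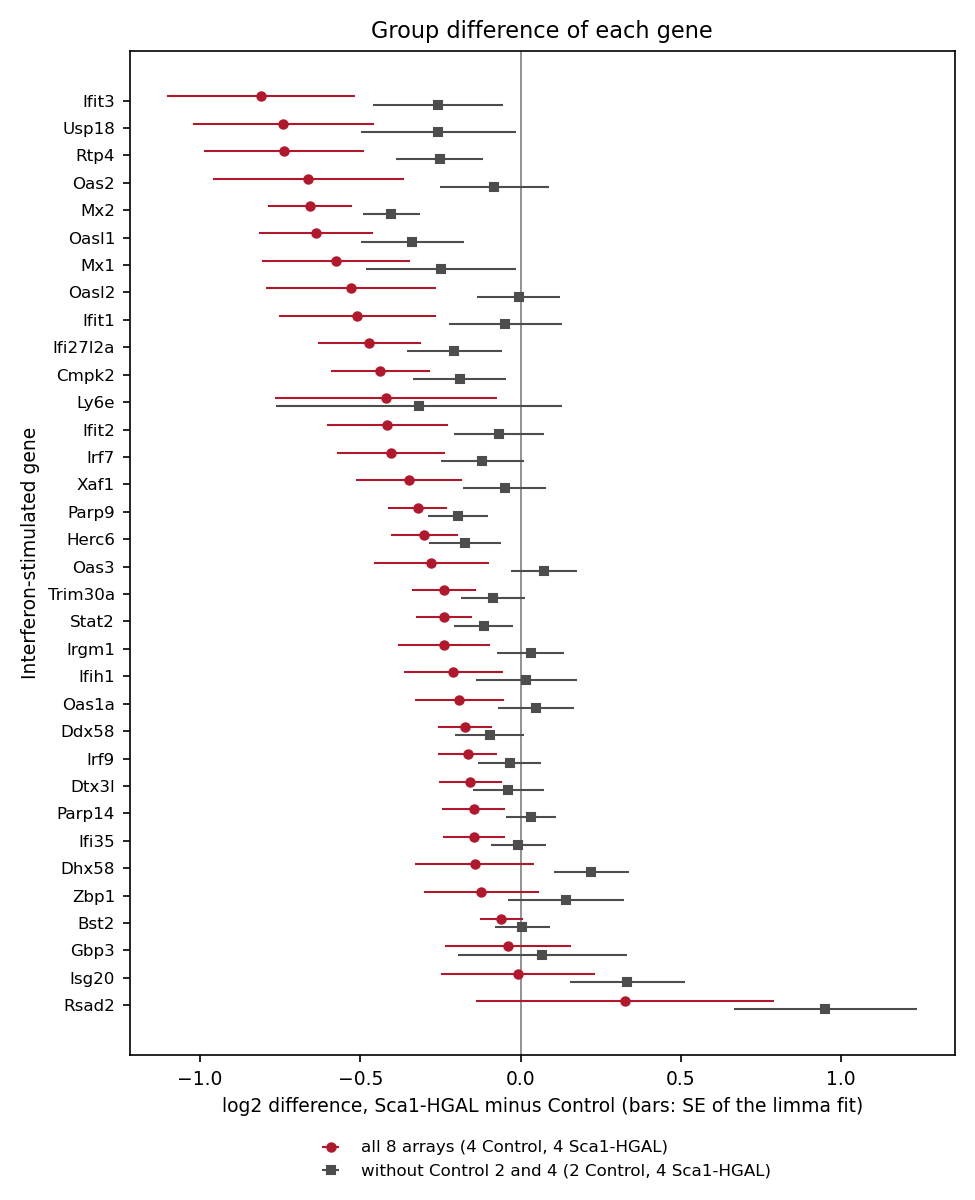
Log2 difference (Sca1-HGAL minus Control, horizontal axis) of each of the 34 genes with the SE of the limma fit as bars, red circles for all 8 arrays and grey squares without Control 2 and 4. The red circles lie left of 0 for 33 genes, with a median of -0.29, and the grey squares lie around 0, with a median of -0.06; Mx2 stays low and Rsad2 moves right.

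The sensors and transcription factors that start the response come first. Stat2, a subunit of ISGF3, was at 10.004, 10.24, 9.93 and 10.19 on Control replicates 1 to 4 and at 9.78, 9.94, 9.95 and 9.74 on Sca1-HGAL replicates 1 to 4. The groups overlapped by a small margin, Control replicate 3 lying below Sca1-HGAL replicates 2 and 3. Its difference was -0.24 (SE 0.09, limma adjusted p = 0.417), and -0.12 in the fit that left out both arrays of high Xist (adjusted p = 0.784). Irf7, the interferon regulatory factor that amplifies interferon production, was at 8.79 ± 0.37 (SD, n = 4) in Control and 8.39 ± 0.20 (SD, n = 4) in Sca1-HGAL, and Irf9, the DNA-binding part of ISGF3, at 10.17 ± 0.17 and 10.01 ± 0.11. Their differences were -0.41 and -0.17 with all arrays, and -0.12 and -0.03 without the arrays with high Xist.

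Of the 4 sensors, Ifih1 (the RNA helicase MDA5) was at 6.87, 7.35, 7.05 and 7.49 on the Control arrays and 7.12, 7.01, 6.61 and 7.18 on the Sca1-HGAL arrays. The groups overlapped except for the Control arrays with high Xist, and the difference was -0.21 (SE 0.15, limma adjusted p = 0.718). Ddx58 (RIG-I), which senses viral RNA, had -0.17, Dhx58 (LGP2), a relative without its own signalling domain, -0.14, and Zbp1, a sensor of Z-form nucleic acid, -0.12. Without the arrays with high Xist only Ddx58 of the 4 stayed negative, at -0.10, while Dhx58 was at 0.22, Zbp1 at 0.14 and Ifih1 at 0.02. None of these passed in either fit.

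The IFIT proteins bind foreign RNA ends and block translation. Ifit3 was at 8.08, 9.26, 8.58 and 9.60 on Control replicates 1 to 4 and at 8.04, 8.26, 7.67 and 8.32 on the Sca1-HGAL arrays. Both Control arrays with high Xist were above every other array, and the remaining Control arrays lay within or just above the Sca1-HGAL range. Its mean was 1.75-fold lower in Sca1-HGAL (log2 difference -0.81, SE 0.29, limma adjusted p = 0.417), and the difference was -0.26 (SE 0.20, adjusted p = 0.78) without those arrays. Ifit1 was at 6.76, 7.76, 7.07 and 7.92 in Control and at 6.99, 6.87, 6.49 and 7.13 in Sca1-HGAL, again with the same arrays on top. The difference of -0.51 (SE 0.24) became -0.05, and that of Ifit2 went from -0.42 to -0.07.

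The OAS enzymes make the second messenger that activates RNase L, and their relatives Oasl1 and Oasl2 belong to the same family. Oas2 was at 8.28, 9.19, 8.27 and 9.69 on the Control arrays and at 8.14, 8.14, 7.90 and 8.59 on the Sca1-HGAL arrays. Control replicates 1 and 3 lay below Sca1-HGAL replicate 4, so the group difference of -0.66 (SE 0.30, limma adjusted p = 0.52) was -0.08 without the arrays with high Xist. Oasl2 was at 7.94, 8.80, 8.05 and 9.29 in Control and at 8.06, 7.95, 7.73 and 8.21 in Sca1-HGAL, and its difference of -0.53 became -0.01. Oasl1, which restrains Irf7 translation, kept more of its difference. It was at 8.58, 9.21, 8.69 and 9.27 on the Control arrays and at 8.40, 8.06, 8.11 and 8.63 on the Sca1-HGAL arrays, where only Sca1-HGAL replicate 4 reached into the Control range. The difference was -0.64 (SE 0.18, limma adjusted p = 0.294) with all arrays and -0.34 (adjusted p = 0.64) without those with high Xist. Oas1a and Oas3 had -0.19 and -0.28, and 0.05 and 0.07 in the smaller fit.

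Mx1 and Mx2 encode dynamin-like GTPases that block viruses, and both are listed as transcribed pseudogenes in the C57BL/6J reference. Mx2 was the member with the smallest p. Its levels were 6.48, 7.06, 6.73 and 7.16 on Control replicates 1 to 4 and 6.18, 6.20, 6.25 and 6.18 on Sca1-HGAL replicates 1 to 4. It was the only member whose groups did not overlap, with all 4 Sca1-HGAL arrays below all 4 Control arrays, against 2.30% of probe sets with that order and 3.15% with the opposite order. The difference was -0.66 (SE 0.13, limma adjusted p = 0.142), and -0.40 (SE 0.09, 95% interval -0.61 to -0.20, adjusted p = 0.454) in the smaller fit, where the groups again did not overlap, as for 6.60% of probe sets. Over the alternatives its adjusted p ran from 0.057 to 0.454. The Sca1-HGAL mean of Mx2, 6.20, was the lowest of the members, with an SD of 0.03 against a median of 0.11 over all probe sets. Whether these low values are background was not tested. Mx1 was at 6.97, 7.67, 7.43 and 8.04 in Control and at 7.38, 6.62, 6.66 and 7.15 in Sca1-HGAL, with overlapping groups. Its difference was -0.58 (SE 0.23, limma adjusted p = 0.479), and -0.25 in the smaller fit.

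Usp18 and Herc6 belong to the ISG15 system, in which the ubiquitin-like protein ISG15 is attached to other proteins. Usp18, which removes ISG15 and damps receptor signalling, was at 8.28, 9.25, 8.59 and 9.56 on the Control arrays and at 8.14, 8.13, 7.72 and 8.73 on the Sca1-HGAL arrays. Sca1-HGAL replicate 4 lay above both Control arrays with low Xist, and the difference of -0.74 (SE 0.28, limma adjusted p = 0.45) was -0.26 without the arrays with high Xist. Herc6, the mouse ligase for ISG15, was at 9.32, 9.52, 9.44 and 9.74 in Control and 9.36, 9.02, 9.13 and 9.30 in Sca1-HGAL. Only Sca1-HGAL replicate 1 overlapped the Control arrays, and the difference was -0.30 (SE 0.10, limma adjusted p = 0.399), and -0.17 in the smaller fit.

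Parp9, Dtx3l and Parp14 are neighbours on chromosome 16 and encode partners in ADP-ribosylation and ubiquitin transfer. Parp9 was at 9.02, 9.26, 9.14 and 9.41 on the Control arrays and at 8.87, 8.76, 9.02 and 8.90 on the Sca1-HGAL arrays. Control replicate 1 and Sca1-HGAL replicate 3 met at the same rounded level and the other arrays did not overlap. The difference was -0.32 (SE 0.09, limma adjusted p = 0.302), and -0.20 (adjusted p = 0.646) in the smaller fit. Dtx3l had -0.16 and Parp14 -0.15, and in the smaller fit -0.04 and 0.03.

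The immunity GTPases of the list are induced mainly by type II interferon. Gbp3 was at 7.97, 8.45, 8.53 and 8.47 on the Control arrays and at 8.91, 8.28, 7.96 and 8.11 on the Sca1-HGAL arrays. It did not follow the arrays with high Xist, and Sca1-HGAL replicate 1 was the highest, for a difference of -0.04 (SE 0.20, limma adjusted p = 0.973), and 0.07 in the smaller fit. Irgm1 did follow them, at 9.70, 10.27, 9.89 and 10.41 in Control and 9.85, 9.89, 9.64 and 9.93 in Sca1-HGAL. Its difference was -0.24 with all arrays and 0.03 without those with high Xist.

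Among the other effectors, Rtp4, a receptor chaperone, was at 7.86, 8.65, 7.99 and 9.13 on the Control arrays and at 7.58, 7.54, 7.58 and 7.98 on the Sca1-HGAL arrays. Sca1-HGAL replicate 4 lay between Control replicates 1 and 3 and the other Sca1-HGAL arrays lay below all Control arrays. Its mean was 1.67-fold lower in Sca1-HGAL (log2 difference -0.74, SE 0.25, limma adjusted p = 0.386), and the difference was -0.25 (adjusted p = 0.679) in the smaller fit. Ifi27l2a, a small interferon-induced membrane protein gene, was at 8.68, 9.32, 9.03 and 9.46 in Control and 8.86, 8.48, 8.48 and 8.78 in Sca1-HGAL. Here Control replicate 1 fell within the Sca1-HGAL range, and the difference was -0.47 (SE 0.16, limma adjusted p = 0.391), and -0.21 (adjusted p = 0.756) in the smaller fit. Xaf1, an antagonist of the XIAP inhibitor of apoptosis, had -0.35, Trim30a, a TRIM family ubiquitin ligase, -0.24, Ifi35 -0.15 and Bst2, the tetherin that holds budding viruses, -0.06. Without the arrays with high Xist these 4 were between -0.09 and 0.00.

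For Rsad2, Isg20 and Ly6e, as for Gbp3, the Control arrays with high Xist did not both lie above the other 6. For Isg20 both still lay above the other Control arrays. Rsad2, which encodes the antiviral enzyme viperin, was at 9.05, 8.92, 8.22 and 10.85 on the Control arrays and at 10.01, 9.10, 9.45 and 9.78 on the Sca1-HGAL arrays. Control replicate 4 was the highest array and Control replicate 3 the lowest, and the SD of 1.12 within Control was the largest of any member. It was the only member with a positive difference, 0.33 (SE 0.46, limma adjusted p = 0.871), which became -0.02 without Control replicate 3. Without the arrays with high Xist all 4 Sca1-HGAL arrays lay above both Control arrays, as for 11.1% of probe sets, with a difference of 0.95 (SE 0.29, 95% interval 0.29 to 1.61, adjusted p = 0.547).

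Cmpk2, a mitochondrial nucleotide kinase, is the neighbour of Rsad2 on chromosome 12 and had a different profile. It was at 7.87, 8.57, 8.12 and 8.42 in Control and at 8.001, 7.60, 7.64 and 7.98 in Sca1-HGAL, with the arrays with high Xist on top. The difference was -0.44 (SE 0.15, limma adjusted p = 0.406), and -0.19 in the smaller fit. Isg20, an exonuclease gene, was at 9.75, 10.02, 9.75 and 10.85 in Control and 10.40, 9.72, 9.94 and 10.27 in Sca1-HGAL. Like Rsad2 it was highest on Control replicate 4, followed by Sca1-HGAL replicates 1 and 4. Its difference was -0.01 with all arrays, and 0.33 (adjusted p = 0.681) without those with high Xist.

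Ly6e, a surface protein of the Ly6 family, was at 12.04, 12.56, 13.37 and 13.26 on the Control arrays and at 13.31, 12.13, 11.93 and 12.18 on the Sca1-HGAL arrays. Its high arrays were Control replicates 3 and 4 and Sca1-HGAL replicate 1, so they did not follow Xist. The SD was 0.63 in Control and 0.62 in Sca1-HGAL, and the difference was -0.42 (SE 0.35, limma adjusted p = 0.754), and -0.32 in the smaller fit.

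**Figure D3:**
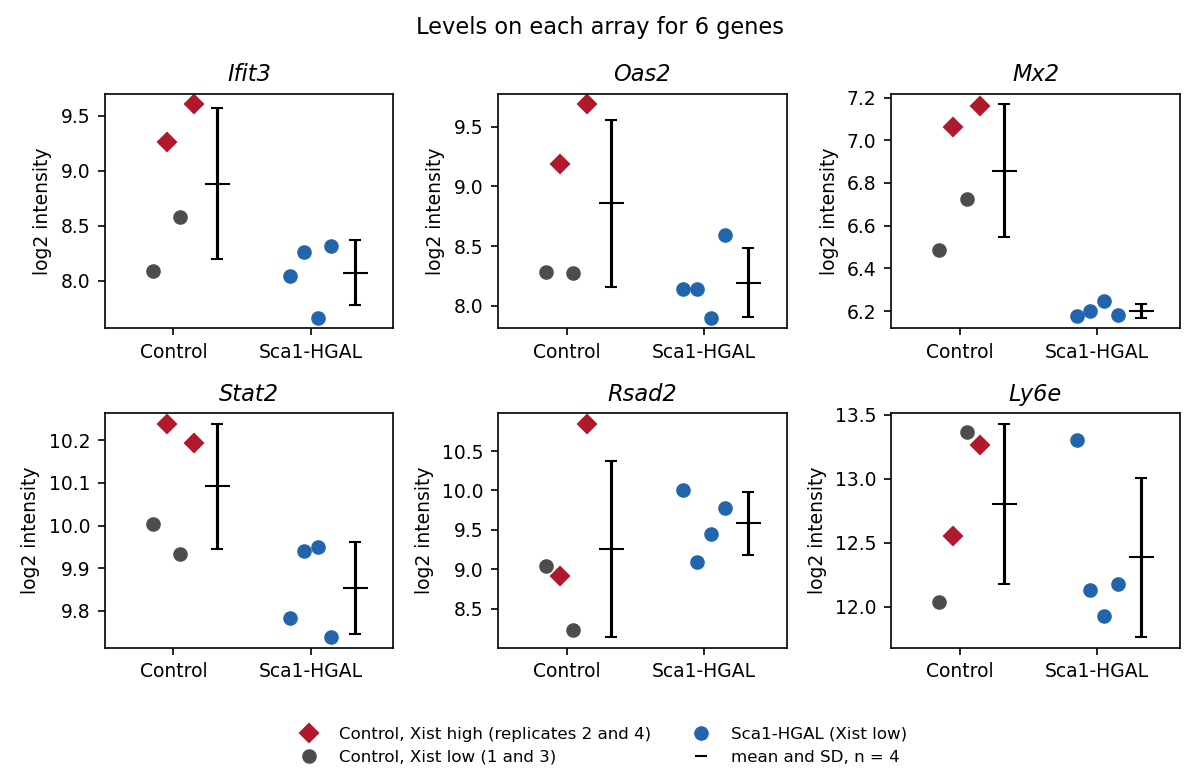
Log2 intensity (vertical axis) of 6 genes on each array, with Control arrays of high Xist as red diamonds, the other Control arrays as grey circles, Sca1-HGAL arrays as blue circles and black bars for the group mean and SD (n = 4). In Ifit3, Oas2, Mx2 and Stat2 the red diamonds are the highest points; in Mx2 the blue circles lie between 6.18 and 6.25, below all Control arrays; Rsad2 and Ly6e are arranged differently.

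The spread between arrays was larger in Control than in Sca1-HGAL for 32 of 34 members, against 42.6% of all probe sets. The median SD over the members was 0.35 within Control and 0.20 within Sca1-HGAL, where the medians over all probe sets were 0.10 and 0.11. Within Control the members' SDs ran from 0.10 for Bst2 to 1.12 for Rsad2, and within Sca1-HGAL from 0.03 for Mx2 to 0.62 for Ly6e. Without the arrays with high Xist the median SD within Control, over 2 arrays, was 0.13. An SD of 2 values is not comparable with those over 4 arrays. The Sca1-HGAL arrays, none of which had high Xist, also varied: replicate 3 was the lowest of its group for 17 members and replicate 2 for 13. In the same group replicate 4 was the highest for 16 and replicate 1 for 14. These counts per array were not made over all probe sets.

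The members varied together across the arrays. After the group means were subtracted, the median Pearson r over the 561 pairs of members was 0.79 over 8 arrays, and it was 0.02 between a member and another gene on the arrays. The arrays fall into clusters by Xist, so this r rests partly on Control replicates 2 and 4. Over the 6 arrays without them the median r was 0.55 over the pairs of members and -0.05 between members and other genes. Within the 4 Control arrays these medians were 0.92 and 0.11, and within the 4 Sca1-HGAL arrays 0.55 and -0.08. With all arrays 27 members had an r above 0.8 with the mean of the other members, and 12 did over the 6 arrays. These values describe few arrays that share their processing and carry no p.

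Over the 6 arrays with low Xist, Stat2 varied in the opposite direction to most other members, within a narrow range of levels. On the 2 Control arrays among them it was at 10.004 and 9.93. Its r with the mean of the others was 0.36 over 8 arrays and -0.96 over the 6, and 32 of its 33 pairs were negative there. These pairs are not independent, because the other members vary together. Parp14 (-0.42) and Parp9 (-0.07) were the other members below 0. Within the 4 Sca1-HGAL arrays, where Stat2 spanned only 0.21, r with the mean of the others was -0.97 for Stat2. It was -0.92 for Mx2, -0.55 for Parp14 and -0.30 for Parp9 there, whose levels spanned 0.07, 0.13 and 0.26. Among neighbouring genes, r was 0.95 over 8 arrays and 0.80 over 6 for Ifit2 and Ifit3, and 0.89 and 0.86 for Oasl1 and Oasl2. It was lower over the 6 arrays for the other pairs, at 0.93 and 0.40 for Oas2 and Oas3, 0.63 and 0.18 for Parp9 and Dtx3l, and 0.45 and 0.36 for Rsad2 and Cmpk2. For Parp14 and Dtx3l it changed sign, from 0.45 to -0.59. Rsad2 varied more closely with Isg20, on another chromosome, at 0.94 over 8 arrays and 0.76 over 6.

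**Figure D4:**
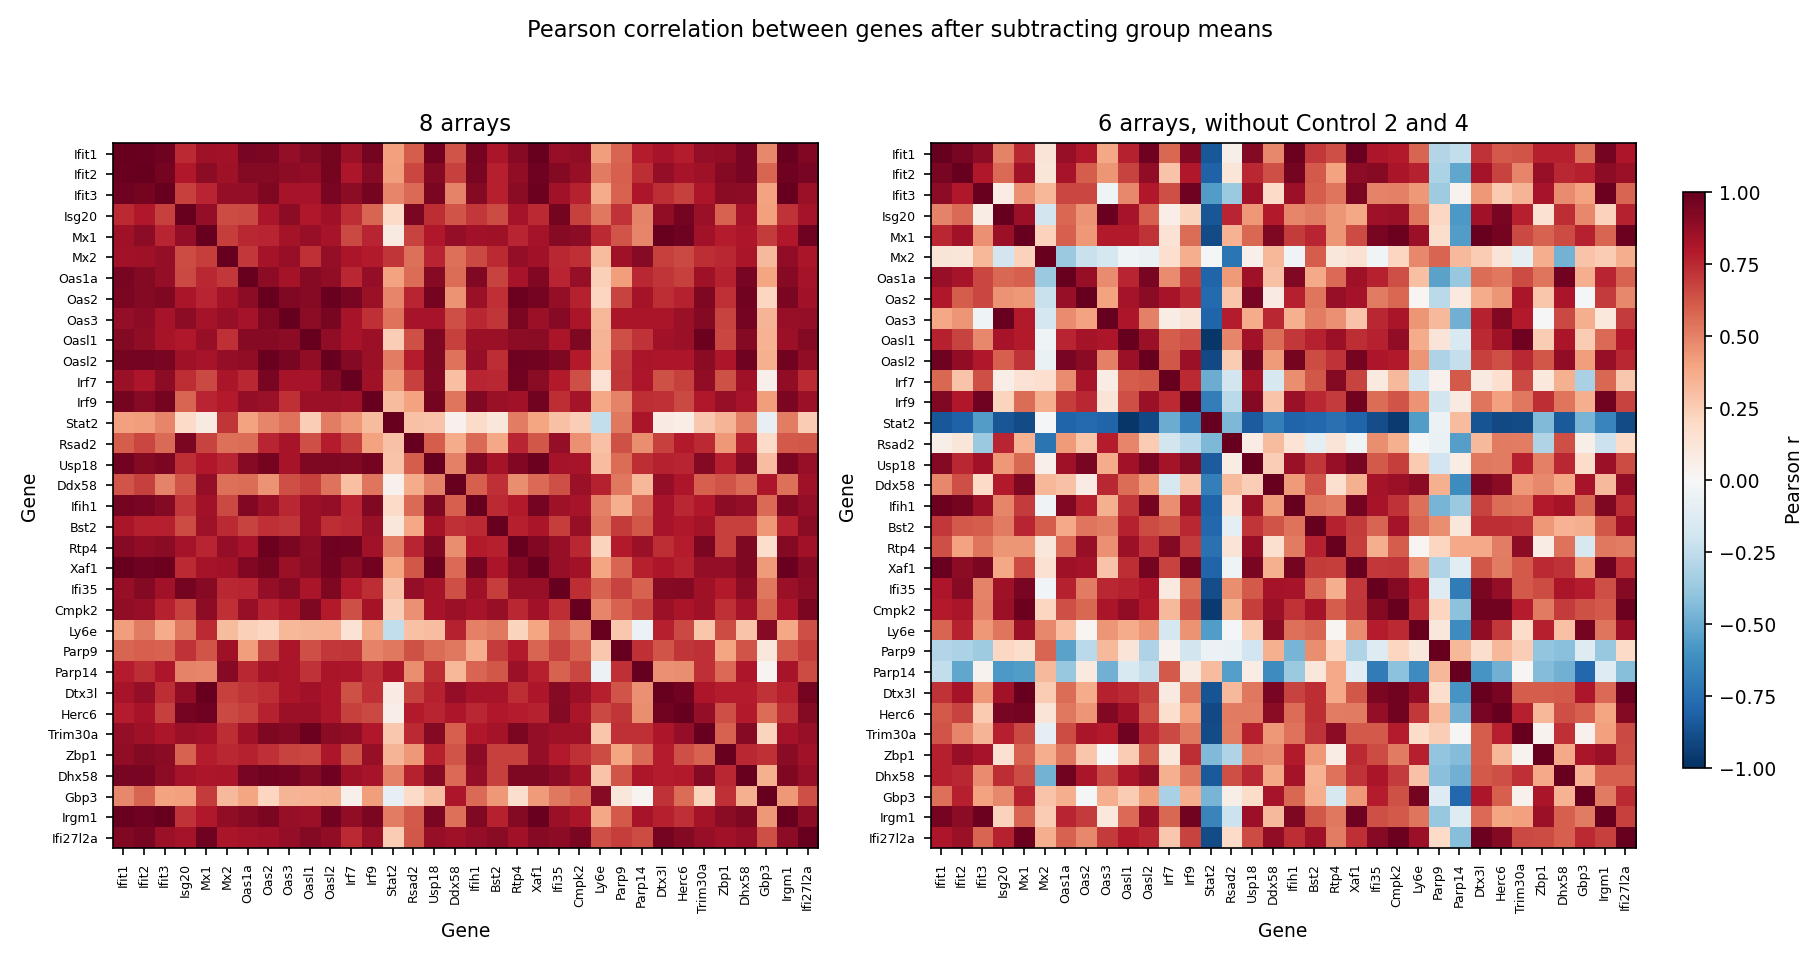
Pearson r between every pair of the 34 genes (rows and columns) after subtracting group means, over 8 arrays on the left and over the 6 arrays without Control 2 and 4 on the right. The median r is 0.79 on the left and 0.55 on the right, and the row of Stat2 is blue on the right, where 32 of its 33 pairs are below 0.

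Genes that make and receive interferon were taken next, from lists of pathway genes. Among 19 measured receptor and signalling genes, the median difference was 0.00, 0 passed limma at an adjusted p under 0.05, 2 were higher at an unadjusted p under 0.05 and 0 lower (5.53% and 4.06% of all probe sets), and for none were both arrays with high Xist above the other 6. In the smaller fit the median was -0.02, with 3 higher and 0 lower (4.93% and 3.15% of all probe sets). Ifnar1, a chain of the type I receptor, was at 10.40 ± 0.12 (SD, n = 4) in Control and 10.24 ± 0.12 (SD, n = 4) in Sca1-HGAL, and Ifnar2 at 10.47 ± 0.13 and 10.51 ± 0.05. Their differences were -0.16 and 0.04, and -0.20 and 0.07 in the smaller fit. The 2 genes at an unadjusted p under 0.05 were Socs3, a feedback inhibitor, with a difference of 0.37 (SE 0.06, limma adjusted p = 0.111), and Stat3, with 0.20 (SE 0.06, adjusted p = 0.33), and these were 0.37 and 0.19 in the smaller fit. Of 13 interferon genes measured 0 passed limma at an adjusted p and 0 at an unadjusted p under 0.05, in either fit. The unadjusted shares of all probe sets were 4.06% lower and 5.53% higher, and 3.15% and 4.93% in the smaller fit. Only 6 of the 13 had a Control mean above log2 6, and Ifnb1 was at 5.47 ± 0.14 in Control and 5.45 ± 0.13 in Sca1-HGAL. Whether probe sets this low hold signal was not tested.

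In the nucleic acid sensing pathway, 0 of 13 genes passed limma, with 2 lower and 1 higher at an unadjusted p under 0.05, against 4.06% and 5.53% of all probe sets. In the smaller fit 1 was lower and 2 higher, against 3.15% and 4.93%. Tlr3, an endosomal RNA receptor, had -0.57 (SE 0.13, limma adjusted p = 0.193) and Tlr9, the DNA receptor, 0.23 (SE 0.07, adjusted p = 0.315), and these were -0.40 and 0.25 in the smaller fit. Sting1, Tlr7 and Myd88 were the 3 genes with both arrays of high Xist above the other 6. Tlr7, which is X-linked, was at 9.41, 9.96, 9.87 and 10.31 on the Control arrays and at 9.84, 9.36, 9.17 and 9.82 on the Sca1-HGAL arrays. Control replicate 3 came close to the high arrays, and the difference was -0.34 (SE 0.20, limma adjusted p = 0.634), and -0.09 (adjusted p = 0.936) in the smaller fit.

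In a list of 48 measured interferon-stimulated genes outside the 34, both arrays with high Xist lay above the other 6 for 20 genes and not for the rest, against 3.43% of all probe sets. Both lay above the other Control arrays for 30 of 48, against 20.5%. The excess over the other Control arrays had a median of 0.23 and ran from -0.03 to 1.46, the highest being that of Slfn5, and it was 0.46 for Eif2ak2, which encodes the kinase PKR. Between genotypes the median difference was -0.12, and 0.05 without those arrays. None of the 48 passed limma, with 9 lower and 1 higher at an unadjusted p under 0.05 (4.06% and 5.53% of all probe sets), and 3 lower and 5 higher in the smaller fit (3.15% and 4.93%). The smallest p belonged to Mitd1 (-0.27), Ms4a4c (-0.41), Ogfr (-0.25) and Lgals9 (-0.34), and the first 3 had groups that did not overlap. Groups did not overlap, with Sca1-HGAL lower, for 6 of the 48, against 2.30% of all probe sets. In the smaller fit Mitd1 was at -0.24, Ms4a4c at -0.28, Ogfr at -0.27 and Lgals9 at -0.23.

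Markers of other cells that the sort could hold were measured beside the members. Fewer cells of a type and less RNA per cell cannot be told apart in these bulk samples. The plasmacytoid dendritic cell, which carries B220 and makes much type I interferon, had a list mean of 8.49 to 8.91 in Control and 8.37 to 8.51 in Sca1-HGAL. Its highest array was Control replicate 3, and Siglech was at 7.61, 7.58, 8.61 and 7.95 on the Control arrays and 7.02, 7.10, 7.40 and 7.48 on the Sca1-HGAL arrays, a difference of -0.68 (SE 0.21, limma adjusted p = 0.342), and -0.86 in the smaller fit. Of the 8 measured plasmacytoid dendritic cell markers 7 had a negative difference, and 5 in the smaller fit, against 43.9% and 42.7% of all probe sets. At an unadjusted p under 0.05, 2 were lower and 0 higher in each fit, and 0 passed at an adjusted p. The unadjusted shares of all probe sets were 4.06% and 5.53%, and 3.15% and 4.93% in the smaller fit. Ccr9 had the smallest p of the list, with -0.83 (SE 0.23, limma adjusted p = 0.294), and -1.04 in the smaller fit. Spib and Smim5 were near 0, at -0.003 and -0.008, and Tcf4 was positive, at 0.22. Spib and Tcf4, at 12.44 and 10.95 in Control, raise the list mean. A count of 0 in a list this short does not set it apart from other genes. For none of the 8 were both arrays with high Xist above the other 6, against 3.43% of all probe sets. That last count was 0 of 10 T cell, 1 of 10 NK cell, 2 of 11 macrophage and monocyte, 0 of 12 neutrophil and 0 of 8 conventional dendritic cell markers. Both arrays lay above the other Control arrays for 7 of 11 macrophage and monocyte markers, with a median excess of 0.25, against 20.5% of all probe sets. They did so for 2 of 10 NK cell and 1 of 8 plasmacytoid dendritic cell markers. For T cell, neutrophil and conventional dendritic cell markers this count was 0. The macrophage and monocyte mean ran from 7.30 to 7.71 in Control and from 7.27 to 7.78 in Sca1-HGAL, and the neutrophil mean from 6.04 to 6.65 and from 6.20 to 7.34. All 12 neutrophil markers had a positive difference, against 56.1% of all probe sets, 6 of them at an unadjusted p under 0.05, against 5.53%, and none past the adjusted threshold. In the smaller fit 11 were positive and 1 negative, with 2 higher at an unadjusted p under 0.05, against 4.93%. Of the 11 macrophage and monocyte markers 7 had a negative difference, with a median of -0.06, and 3 did in the smaller fit, with a median of 0.15. Adgre1, which encodes F4/80 and had the smallest p of that list, stood apart from that median at 1.01 (SE 0.19, limma adjusted p = 0.122), and 1.11 in the smaller fit. The part of these cells in the members' levels was not tested.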

How the data were processed

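Sorted B-cell RNA from 4 Control and 4 Sca1-HGAL samples was hybridised to 8 arrays. Groups and replicate numbers came from the sample titles. The deposited intensities were made by the authors with RMA, per the submitters' processing notes; for its version, the annotation and the build, nothing is given in the sources used here. RMA removes shifts shared by most genes and shrinks folds of dim probe sets. The values were linear (4.94 to 24302), and log2 was taken with no offset and no filter. Of 34760 probe sets, 21640 had 1 gene symbol and were fitted in R 4.3.3 by limma 3.58.1 (lmFit, then eBayes; genotype as the only term; two-sided tests; adjusted p under 0.05). The fit was tested on simulated data. Arrays shared at most 0.06% of equal values. Other summaries used Python 3.11.15. Promoters came from RefSeq (GRCm38.p6).

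The members and lists were chosen with earlier results of these data known. Level, difference and p may be given for every member. Values on each array are given for the 10 members with the smallest p, the 6 with the largest SD in Control and the 3 with the largest SD in Sca1-HGAL among the rest; Irgm1 was added after its values were seen. Of pathway lists the 4 genes with the smallest p qualified, and of marker lists 2; a few others were named after their values were seen. The alternatives were other normalisations, filters, offsets, weights, priors and probe set rules, a block and leaving out arrays.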

Additional observations from a re-analysis of the deposited data

Results flagged for a closer look

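Among 70 sets of 4 values, 2 held a lone high or low array; chance gives about 1 in 20. Rtp4 was highest on Sca1-HGAL replicate 4, at 7.98, while replicates 1 to 3 lay between 7.54 and 7.58. Gbp3 was lowest on Control replicate 1, at 7.97, with the other Control arrays at 8.45 to 8.53.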

How the results depend on the processing

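No member passed limma at an adjusted p under 0.05 in any of the 18 alternative settings. The count of 13 lower members at an unadjusted p under 0.05 ran from 6 to 22 when 1 array was left out, with 0 to 1 higher. Over all 21640 probe sets these counts ran from 637 to 1053 lower and from 929 to 1528 higher in the same fits. Leave-one-out ranges were -0.37 to -0.21 for the median difference, 0.71 to 0.83 for the median r, 0.28 to 0.39 for the median SD in Control and 0.15 to 0.22 in Sca1-HGAL. Without the 2 Control arrays with high Xist, chosen after seeing the data, 1 member was lower and 1 higher at an unadjusted p under 0.05. The median SD in Control was then 0.126, over 2 arrays and so not comparable with the SDs over 4. Of 612 member differences under alternatives 593 kept their direction and 19 turned. With the second quantile normalisation Isg20 was at 0.01. Without the arrays with high Xist, Isg20 was at 0.33, Oas1a at 0.05, Oas3 at 0.07, Ifih1 at 0.02, Bst2 at 0.00, Parp14 at 0.03, Zbp1 at 0.14, Dhx58 at 0.22, Gbp3 at 0.07 and Irgm1 at 0.03. Leave-one-out ranges of the members that turned were -0.12 to 0.24 for Isg20, -0.02 to 0.86 for Rsad2, -0.28 to 0.01 for Dhx58 and -0.24 to 0.08 for Gbp3. Without Control replicate 3, Rsad2 was at -0.02 and Gbp3 at 0.02. Without Control replicate 4, Isg20 was at 0.24 and Dhx58 at 0.01. Isg20 was at 0.11 without Sca1-HGAL replicate 2 and 0.04 without replicate 3, and Gbp3 at 0.08 without replicate 3 and 0.03 without replicate 4. The cause was not tested. Median centring moved the split of all probe sets at an unadjusted p under 0.05 from 879 lower and 1196 higher to 1073 and 975. Calls over all probe sets went from 1 to 12 with array weights, 6 with the replicate block, 2 when probe sets were averaged by gene, 2 without Control replicate 1, without Sca1-HGAL replicate 1 or without the arrays with high Xist, and 40 without Sca1-HGAL replicate 3. The replicate numbers did not pair the arrays (correlations of deviations from -0.16 to 0.05), and with the replicate block the median difference over members was -0.29 and 0 members passed. The number of arrays limits these results, and no detection call was used.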
